A study of Arabidopsis thaliana with 4 samples.

Results

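The genes described are those known on the array only by an AGI locus code, the systematic name of an Arabidopsis gene, whose RNA was at least 2-fold lower in leaves fed sucrose than in leaves fed sorbitol in each of 2 pairs of arrays. They comprised 269 probe sets for 268 genes. A probe set was taken when it matched a single gene, both sorbitol intensities were 64 or more, and the log2 difference (sucrose minus sorbitol) was -1 or less in both pairs. Of 13513 single-gene probe sets on the array, 11933 had only a locus code as symbol, and 3236 of these had both sorbitol intensities at 64 or more outside a few named families. The lowered probe sets were thus 8.31% of the 3236. Another 8 probe sets met the same values but belonged to families that were left out: 4 to MYB genes, 3 to a cluster of tropinone-reductase-like genes and 1 to the CC-type glutaredoxins. These genes were chosen by the sucrose and sorbitol values of the 4 arrays themselves, so their sucrose difference is a description and carries no test.

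The leaves were full-grown source leaves, which export sugar, of non-flowering wild-type Arabidopsis thaliana Col-0. Plants had a 14 h day and a 10 h night. Leaves were cut when the light period ended, and the recut petioles took up either 100 mM sorbitol, the control, or 100 mM sucrose, dissolved in MES buffer (2 mM, pH 6.5), during 13 h without light. Each group had 2 Affymetrix ATH1 arrays, numbered 1 and 2, made from 10 µg of total RNA each. Arrays that share a number are called a pair below. The labels do not say whether the arrays came from separate plants, so the spread between them may be technical.

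Sucrose is both the main transported carbon of the plant and a signal. When sugar runs short, as in a detached leaf kept in the dark, the SnRK1 protein kinase and bZIP transcription factors switch on genes for the breakdown of stored protein, lipid and amino acids, and sugar supply represses these genes. Sugars are also known to repress many genes of photosynthesis in mature leaves. The genes described here carry only a locus code in the annotation used, as do 11933 of its 13513 single-gene probe sets. Some have names elsewhere, such as DEWAX and NPF6.2. The roles given below are general background and not part of the deposited data.

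In all 269 probe sets the sucrose values lay below the sorbitol values of their pair, as the choice required. Their median intensity was 278.9 and 234.5 with sorbitol (arrays 1 and 2), and 75.0 and 63.2 with sucrose. Together they gave 3.78% and 3.59% of the summed intensity of the sorbitol arrays, against 1.23% and 0.977% of that of the sucrose arrays. The median log2 difference was -1.79, or 3.45-fold lower, with quartiles of -2.29 and -1.48. The median over the 3236 probe sets from which they were chosen was -0.13. The 27 Bacillus control probe sets, which match no plant RNA, reached at most 9.3, so a value at or below 9.3 gives only a bound. With such values raised to 9.3, 97 probe sets were at least 4-fold lower on the mean of both pairs, 21 at least 8-fold and 3 at least 16-fold. In both pairs separately, 59, 12 and 1 passed those limits. Without that floor the last counts were 8 on the mean and 5 in both pairs.

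**Figure D1:**
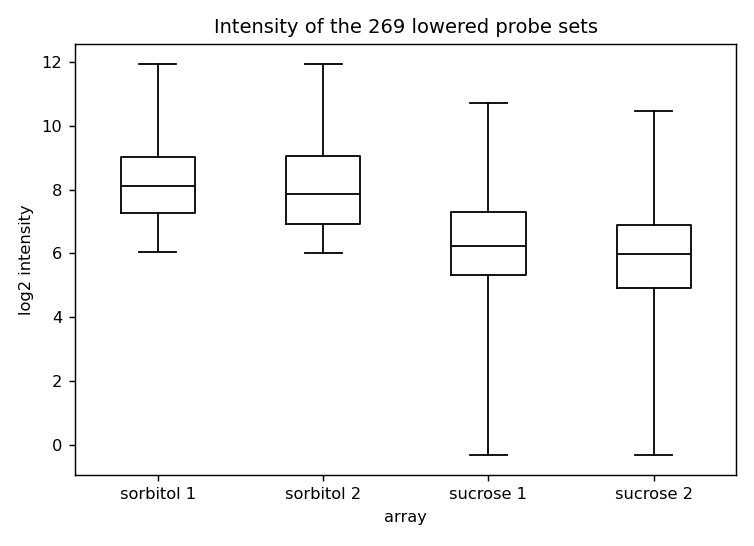
Log2 intensity of the 269 lowered probe sets on each of the 4 arrays; boxes show the median and quartiles, and whiskers the lowest and highest values. The medians correspond to intensities of 278.9 and 234.5 on the sorbitol arrays and 75.0 and 63.2 on the sucrose arrays.

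A few facts of the arrays bear on these values. The 25S rRNA control probe set read 2163.2 and 1255.2 on sorbitol 1 and sucrose 1 but 14.4 and 56.6 on sorbitol 2 and sucrose 2, so the arrays differed by replicate number in a way the sugars do not explain. The difference between the 3 prime and 5 prime probe sets of the older GAPDH control, a measure of RNA integrity, was 1.85 and 1.44 log2 units on the sorbitol arrays and 1.43 and 0.20 on the sucrose arrays. For the newer GAPDH control the same difference was 0.04 and 0.33 on the sorbitol arrays and 0.15 and -0.01 on the sucrose arrays, so only the older control set sucrose 2 apart. Mesophyll, the photosynthetic tissue of the leaf, was represented by 4 of 12 listed markers (RCA, PRK, SBPASE and CHLM). Their summed intensity was 10372.4 and 8843.7 on the sorbitol arrays and 3419.0 and 1821.5 on the sucrose arrays. The phloem marker SWEET11, 1 of 5 listed, read 1829.4 and 1098.5 with sorbitol and 399.3 and 368.8 with sucrose. The guard cell marker FMA, 1 of 5 listed, read 41.3 and 55.6 with sorbitol and 39.5 and 37.0 with sucrose, and no listed epidermis or xylem marker had a single-gene probe set. In whole leaves, fewer cells of a type and less RNA per cell cannot be told apart. The part of the control, RNA-integrity and marker differences in the results below was not tested.

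The genes with the lowest sucrose values were among those for which no role is given here. AT1G78995 read 91.2 and 147.5 on the sorbitol arrays (1, then 2) but 1.0 and 1.4 with sucrose. AT2G15020 read 79.3 and 107.7 with sorbitol and 0.8 and 1.9 with sucrose. AT3G23880 read 71.9 and 67.7 with sorbitol and 1.2 and 1.9 with sucrose. These 3 genes were modest in sorbitol and at the bottom of the scale in sucrose. With the sucrose values raised to 9.3, the 3 genes were at least 12.5-fold, 9.94-fold and 7.50-fold lower. Their deposited values would rank them first, but these bounds lie below the measured differences of AT3G22210 and AT3G15450 (17.6-fold and 14.8-fold). AT1G49200, which encodes a RING-domain protein of the kind found in ubiquitin ligases, was the only other gene with both sucrose values under that level. It read 97.1 and 100.7 with sorbitol and 4.5 and 7.9 with sucrose, at least 10.6-fold lower on the same reckoning. In all, 9 probe sets had a sucrose value at or below 9.3, and 109 had both sucrose values under 64. On their mean over all arrays, 265 of the 269 were bright enough for the filter of the limma fit used below, and 4 were not.

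Other large differences were measured with all 4 values above the control level. AT3G22210 read 581.3 and 701.3 with sorbitol and 43.7 and 30.2 with sucrose, a mean log2 difference of -4.14, or 17.6-fold lower. AT4G33666 read 533.5 and 549.5 with sorbitol and 21.6 and 76.0 with sucrose, a mean of -3.74. AT1G22630 read 319.2 and 435.7 with sorbitol and 50.5 and 15.7 with sucrose, a mean of -3.73, and its sucrose 2 value was not far above the control level. In these 3 genes the sorbitol arrays lay close together and the sucrose arrays lay 1.45-fold to 3.52-fold apart. The size of the difference was thus uncertain, and its direction was required by the choice. AT5G59080 read 239.6 and 178.0 with sorbitol and 9.5 and 8.9 with sucrose, 1 just above and 1 below the control level, and was at least 22.0-fold lower. AT3G06070 read 152.4 and 77.3 with sorbitol and 9.5 and 0.8 with sucrose, so its sucrose 2 value lay under the control level. With that value raised to 9.3 its log2 difference was -4.00 in pair 1 and -3.06 in pair 2.

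**Figure D2:**
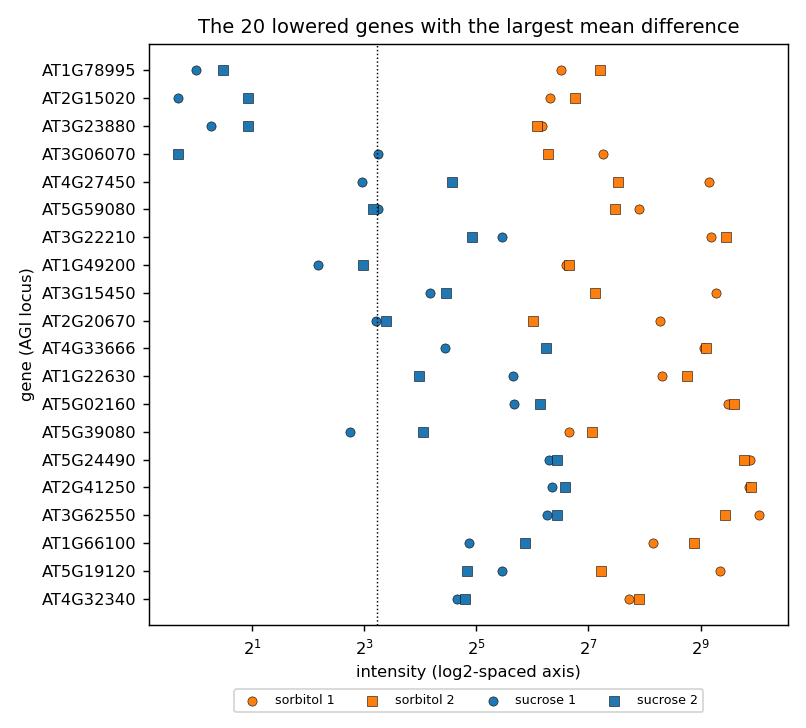
Intensity on each array for the 20 lowered genes with the largest mean difference in the values as deposited, on a log2-spaced axis; orange is sorbitol, blue is sucrose, circles are replicate 1 and squares replicate 2, and the dotted line is the highest Bacillus control intensity, 9.3. The sorbitol and sucrose points do not overlap for any gene, and those of AT1G78995, AT2G15020, AT3G23880 and AT1G49200 with sucrose lie left of the line.

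Genes of families known from sugar starvation, dormancy and stress numbered 11, and their median log2 difference was -2.40. The largest belonged to AT4G27450, a member of a family first described as induced by aluminium and widely used as a marker of energy shortage. It read 565.9 and 184.5 with sorbitol and 7.8 and 23.7 with sucrose, with log2 differences of -6.18 and -2.96 in pairs 1 and 2. Its relative AT3G15450 read 620.2 and 139.1 with sorbitol and 18.0 and 21.9 with sucrose, with differences of -5.11 and -2.67. Both genes were highest on sorbitol 1 and low on both sucrose arrays. The sucrose 1 value of AT4G27450 lay under the control level, and with it raised to 9.3 the mean log2 difference was -4.44. AT2G20670, of the DUF506 family of unknown function, read 308.3 and 64.8 with sorbitol and 9.2 and 10.5 with sucrose. The other DUF506 genes were AT3G07350 and AT2G38820, with mean differences of -2.40 and -2.06. AT3G62550 encodes a universal stress protein, a class of small nucleotide-binding proteins. It read 1060.7 and 692.8 with sorbitol and 76.6 and 86.9 with sucrose, a mean of -3.39.

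Each of these 11 genes was higher on sorbitol 1 than on sorbitol 2. The lean was not theirs alone. Of the groups described below, 11 of 12 cell wall and secreted genes and 9 of 10 regulators showed it. The median gap between the sorbitol arrays was 1.06 log2 units, from 0.42 to 2.25, and 6 of the 11 differed 2-fold or more. In 10 of the 11 the difference from sucrose was larger in pair 1, with medians of -3.79 in pair 1 and -2.10 in pair 2. Their sucrose values differed less, by a median of -0.18 between sucrose 1 and sucrose 2. Of all lowered probe sets, 159 (59.1%) were higher on sorbitol 1, against 49.5% of the 3236, and 8.55% differed 2-fold or more between the sorbitol arrays against 4.23%. The array medians themselves differ by 0.22 log2 units between sorbitol 1 and 2. With the arrays centred on their medians, 106 of the 269 were higher on sorbitol 1. The share of the 3236 on that scale is not given here, so the 106 has no background. The 11 of 11 remained, with a median gap of 0.84. The rule used both sorbitol values, so these shares are given without a test.

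Photosynthesis and plastid proteins formed the largest group with a role, 29 genes on 30 probe sets, with a median log2 difference of -1.90. AT1G32470, counted among them, encodes the H protein of glycine decarboxylase, a mitochondrial enzyme of photorespiration; without it the median of the other 29 probe sets was -1.92. The group held the brightest of the lowered genes. AT2G26500 encodes a small subunit of the cytochrome b6f complex, which passes electrons between the photosystems. It read 3881.3 and 3637.9 with sorbitol and 1685.6 and 1428.1 with sucrose. AT1G51400, for a small photosystem II protein, read 3665.5 and 3960.0 with sorbitol and 1356.4 and 667.3 with sucrose. AT1G74470 encodes geranylgeranyl reductase, which makes the side chain of chlorophyll and of tocopherols. It read 3429.0 and 3019.4 with sorbitol and 1334.1 and 1090.8 with sucrose. These 3 transcripts remained bright with sucrose, and their mean log2 differences were -1.28, -2.00 and -1.42.

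The largest difference in the plastid group was that of AT5G24490, which resembles the S30Ae proteins that bind resting ribosomes. It read 938.5 and 879.2 with sorbitol and 78.5 and 86.9 with sucrose, a mean log2 difference of -3.46 with little spread between arrays. AT2G34620, of the mTERF family that acts on organelle transcripts, read 337.9 and 350.8 with sorbitol and 51.9 and 47.9 with sucrose. Its log2 differences of -2.70 and -2.87 were nearly equal. AT3G47070, a soluble thylakoid phosphoprotein, read 1163.2 and 1626.6 with sorbitol and 243.3 and 217.0 with sucrose. AT3G08920, with a rhodanese-like domain, read 298.4 and 157.7 with sorbitol and 62.6 and 21.3 with sucrose. Small families recurred in the group: 3 rhodanese-like genes had means from -2.57 to -1.81, 3 pentapeptide repeat genes from -2.33 to -1.79, and 2 pentatricopeptide repeat genes, for RNA-binding proteins of organelles, -2.40 and -2.28.

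The plastid genes differed between pairs in the opposite sense to the starvation genes. In 28 of 30 probe sets the difference from sucrose was larger in pair 2, with medians of -1.49 in pair 1 and -2.29 in pair 2. The gaps between the sorbitol arrays had no common direction. Sorbitol 1 was higher in 13 of 30, and the median gap was -0.05, from -0.53 to 0.92. Sucrose 1 was above sucrose 2 in 27 of 30, by a median of 0.61 log2 units. That lean was common: sucrose 1 was higher in 70.6% of all 269 probe sets and in 62.4% of the 3236. Without the mitochondrial AT1G32470 the counts of 28 and 27 became 27 and 26 of 29. With quantile normalization or median centring the count was again 28 of 30. Among all 269 probe sets 175 (65.1%) had the larger difference in pair 2, close to the 62.6% of the 3236. The mesophyll markers moved in the same sense, with sums of 3419.0 on sucrose 1 and 1821.5 on sucrose 2. The 3 prime to 5 prime difference set sucrose 2 apart in the older GAPDH control but not in the newer. The part of these in the pair difference was not tested.

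**Figure D3:**
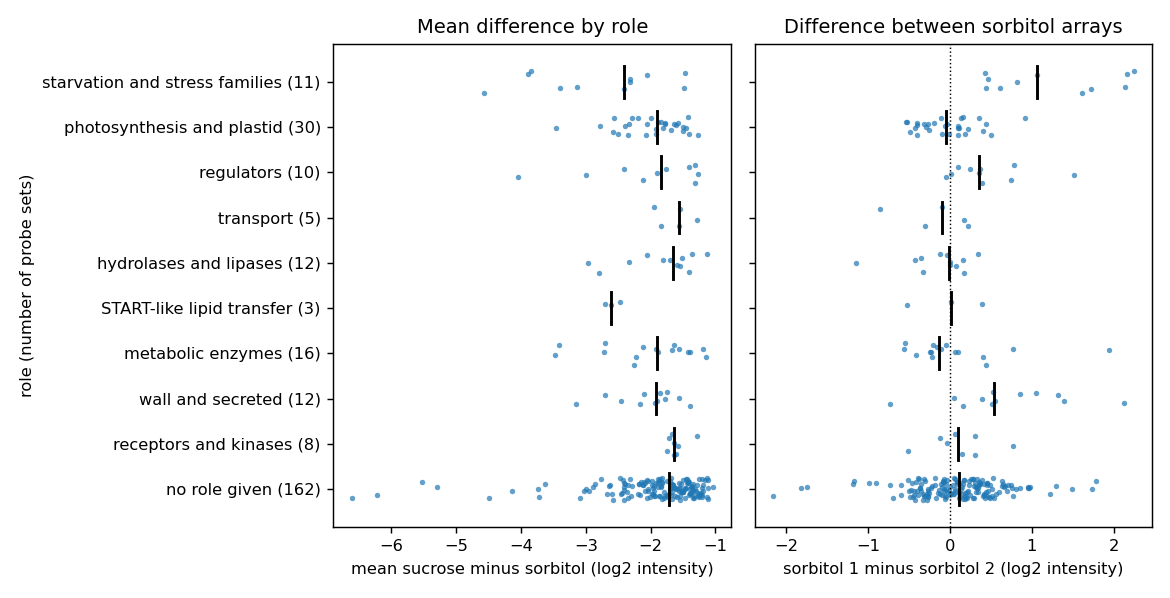
Left, the mean sucrose minus sorbitol difference of each of the 269 lowered probe sets by role; right, the difference between the sorbitol arrays, both in log2 intensity, with the median of each role as a bar. The 11 starvation and stress genes all lie right of 0 in the right panel, with a median of 1.06, while the 30 plastid probe sets centre at -0.05.

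Regulators numbered 10, with a median log2 difference of -1.83 and AT1G49200, described above, at their head. AT5G61590 is an ERF transcription factor known as DEWAX, a repressor of wax genes in darkness. It read 425.9 and 149.7 with sorbitol and 44.7 and 22.4 with sucrose, 7.98-fold lower on the mean. AT2G28200, for a C2H2 zinc-finger protein, read 89.0 and 74.9 with sorbitol and 19.1 and 12.4 with sucrose. AT1G69570, for a Dof transcription factor, read 200 and 119.3 with sorbitol and 39.5 and 32.1 with sucrose. The sorbitol values of the ERF gene lay 2.85-fold apart, yet both were above both sucrose values.

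Enzymes of metabolism numbered 16, with a median of -1.90. AT5G39080, for an acyltransferase of the HXXXD class that decorates secondary metabolites, read 101.1 and 134.3 with sorbitol and 6.7 and 16.5 with sucrose. AT2G41250, for a HAD-like hydrolase, read 929.0 and 959.3 with sorbitol and 82.0 and 96.0 with sucrose. The second gave the firmer value, a mean log2 difference of -3.41, since its arrays agreed closely within each sugar. AT1G22430, resembling alcohol dehydrogenase, read 168.0 and 156.6 with sorbitol and 26.7 and 22.8 with sucrose. AT2G03750, for a sulfotransferase, read 171.3 and 249.7 with sorbitol and 30.3 and 32.9 with sucrose. Each of these 4 genes was more than 6-fold lower on the mean.

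Hydrolases of the alpha/beta fold and lipases, which cleave esters and lipids, numbered 12, with a median of -1.65. AT4G12830 read 74.4 and 164.0 with sorbitol and 13.5 and 14.8 with sucrose, the widest sorbitol gap of the group. AT5G17670 read 408.6 and 361.9 with sorbitol and 75.5 and 40.4 with sucrose. AT3G47560 and AT1G35420 had mean log2 differences of -2.34 and -2.05, and 11 of the 12 genes differed more in pair 2 (10 with quantile normalization). The 3 genes of the START-like family, whose proteins carry lipids, were close to each other: AT3G23080, AT1G55960 and AT3G13062 had means of -2.71, -2.61 and -2.48. AT1G55960 read 392.6 and 564.0 with sorbitol and 79.0 and 75.3 with sucrose.

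Cell wall and secreted proteins numbered 12, with a median of -1.92, and 11 of them were higher on sorbitol 1 than on sorbitol 2 (9 with median centring). The exception was AT1G66100, for a thionin, a small antimicrobial peptide, which read 284.1 and 473.1 with sorbitol and 29.3 and 58.5 with sucrose. AT1G25230, for a purple acid phosphatase, read 207.9 and 83.6 with sorbitol and 27.0 and 15.0 with sucrose. The subtilisin-like protease gene AT5G44530 and the GASA peptide gene AT1G22690 had means of -2.46 and -2.16. AT2G45180, resembling a lipid transfer protein, was among the 6 brightest of all, at 2750.5 and 1913.5 with sorbitol and 924.8 and 505.3 with sucrose.

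Transport proteins numbered 5 and receptors and kinases 8, with medians of -1.57 and -1.63. AT3G02690, for an EamA-type transporter, AT1G72820, for a mitochondrial carrier, and AT1G52870, for an Mpv17-like membrane protein, had means of -1.95, -1.83 and -1.57. AT2G26690 encodes NPF6.2, of the nitrate and peptide transporter family. It read 391.5 and 706.9 with sorbitol and 99.7 and 322.6 with sucrose, so its sucrose 2 value lay only a little under its sorbitol 1 value. The NBS-LRR class of intracellular immune receptors gave 4 genes with means from -1.75 to -1.63, among them AT5G58120, AT5G38850 and AT4G19500. AT1G16260, for a wall-associated-type kinase, read 175.6 and 168.0 with sorbitol and 50.9 and 56.8 with sucrose.

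The remaining 162 genes have no role given, and their median log2 difference, -1.72, was near that of all lowered probe sets. AT2G46220 and AT1G49500 were their brightest. AT2G46220 read 2967.0 and 2232.2 with sorbitol and 458.5 and 391.6 with sucrose, a mean of -2.60. AT1G49500 read 2301.7 and 1954.8 with sorbitol and 660.0 and 607.2 with sucrose, a mean of -1.74. Both differed by sugar far more than by replicate. The reference annotation classes 2 of the 269, AT5G04880 and AT1G35612, as pseudogenes and the others as protein coding.

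Differences between the pairs were common. With values under 9.3 raised to it, they reached 1 log2 unit or more in 51 probe sets, of which 36 had the larger difference in pair 2 and 15 in pair 1. The 4 widest on that scale were those of AT4G27450, AT3G07350, AT3G15450 and AT2G20670, from 2.97 to 2.43 log2 units. In AT4G27450 and AT2G20670 sucrose 1 lay under 9.3, so the gap is a bound. AT3G07350 read 359.9 and 109.2 with sorbitol and 26 and 53.9 with sucrose, so its log2 difference was -3.79 in pair 1 and -1.02 in pair 2. Across pairs, some sucrose values lay above a sorbitol value. AT5G47330 read 141.1 and 629.9 with sorbitol and 69.9 and 203.0 with sucrose, so sucrose 2 lay above sorbitol 1. The same held for AT3G28270, while in AT1G21050 and AT5G12050 sucrose 1 lay above sorbitol 2. These genes were thus lowered only with the arrays paired by number. Of the 3236 probe sets, 97 passed the limit in pair 1 only and 301 in pair 2 only, and none was 2-fold lower in one pair and 2-fold higher in the other. In the other direction, 70 of the 3236 (2.16%) were 2-fold or more above sorbitol in each pair. The sorbitol minimum leaves out genes that were dim in sorbitol, so this share is no even counterpart of the lowered share.

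**Figure D4:**
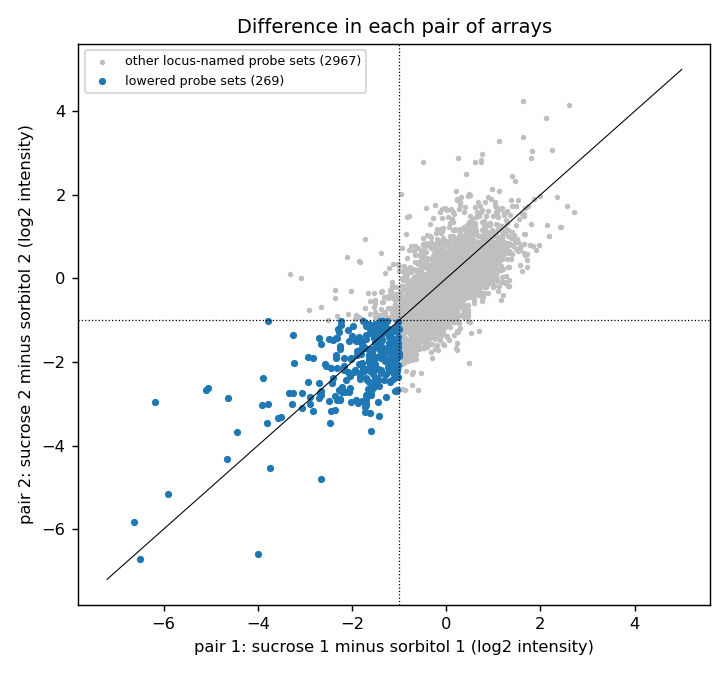
Sucrose minus sorbitol log2 difference in pair 1 (horizontal) and pair 2 (vertical) for the 269 lowered probe sets (blue) and the other locus-named probe sets with both sorbitol intensities at 64 or more (grey); dotted lines mark -1 and the solid line equal differences. More blue points lie below the solid line (175) than above it (94).

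The limit of -1 cut through a continuous range. Just inside it lay AT5G58575 (-1.01 and -1.21 in pairs 1 and 2), AT3G49140 (-1.36 and -1.01) and AT3G20820 (-1.01 and -1.78). Just outside lay AT3G48420 (-0.998 and -2.14), AT5G53020 (-0.998 and -1.16) and AT5G46840 (-1.08 and -0.996).

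The share of lowered probe sets was larger among genes brighter in sorbitol. Probe sets were binned by the geometric mean of their sorbitol values, with limits doubling from 64. The same sorbitol values enter the difference, so brighter bins lean to lower differences in part by construction. In the dimmest bin the share was 61 of 1200 (5.08%), and in the next, which ended at 256, it was 79 of 1063 (7.43%). It was 64 of 590 (10.8%) at 256 to 512, 47 of 285 (16.5%) at 512 to 1024 and 18 of 98 (18.4%) above 1024. The median difference of all locus-named probe sets in these bins went from -0.03 in the dimmest to -0.66 in the brightest. The median of the lowered ones stayed between -1.86 and -1.71. Probe sets with a gene symbol, at the same sorbitol minimum, were lowered in 49 of 645 cases (7.6%): 3.43% of the 175 in the dimmest bin and 14.3% of the 147 at 512 or more. Of these 645, 17 (2.64%) were raised 2-fold or more in both pairs, a share that the sorbitol minimum limits in the same way. Over all 7711 probe sets at this minimum, whatever their annotation, 652 (8.46%) were lowered.

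The genes lay on all 5 chromosomes, from 7.11% of the locus-named probe sets at this level on chromosome 3 to 9.29% on chromosome 1. Their median gene length was 1961 bases (quartiles 1338 and 2650), against 2252 bases (1676.5 and 3102) for the 3231 probe sets of the 3236 that had a length. Among 485 adjacent pairs of genes at this level, 7 were lowered together and 66 had 1 lowered gene. A lowered gene with such a neighbour thus had a lowered neighbour in 14 of 80 cases (17.5%), against 8.30% of all 3227 genes. The neighbours were AT1G21050 and AT1G21060, AT1G30250 and AT1G30260, AT3G60290 and AT3G60300, AT4G33660 and AT4G33666, AT4G37550 and AT4G37560, AT5G38510 and AT5G38520, and AT5G57340 and AT5G57345. AT4G37550 and AT4G37560 both encode formamidase-like enzymes, with mean log2 differences of -1.56 and -1.89. AT1G21050 was lowered only with the arrays paired by number, as described above. Shared probes between neighbours of one family were not examined.

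A second probe set was at hand for 3 of the genes. AT1G51110, for a fibrillin, a lipid-associated plastid protein, met the limits with both: 1 read 118.3 and 121.3 with sorbitol and 45.6 and 32.3 with sucrose, the other 263.7 and 347.8 with sorbitol and 115.7 and 88.8 with sucrose. The second probe set of AT5G54130 read 120.5 and 102.1 with sorbitol and 24.0 and 55.0 with sucrose, lower in both pairs but past the limit only in pair 1. That of AT2G32560, for an F-box protein, read under the control level on all 4 arrays and gives no comparison.

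Of a list of 39 genes of energy shortage, 11 had a single-gene probe set, and 2 of these, AT3G15450 and AT4G27450, are among the lowered genes and were not tested. Of the other 9, which the choice did not use, 7 had a log2 difference below 0 and 2 above, with a median of -0.49. Their sorbitol values ran from 75.3 (ETFQO) to 1658.7 (ALDH7B4). Among locus-named probe sets at 64 or more, the median went from -0.03 in the dimmest sorbitol bin to -0.66 in the brightest. The part of brightness in the median of the 9 was not tested. The 13648 probe sets tested, which include dimmer ones, are thus an uneven background, with 48.4% below 0 and a median of 0.02. In limma with Benjamini-Hochberg adjustment over those probe sets, 1 of the 9 passed the threshold as lower and 0 as higher, where 0.923% of probe sets passed as lower and 0.366% as higher. That gene was AKINBETA1, a subunit of the SnRK1 kinase, which read 362.4 and 211.0 with sorbitol and 23.3 and 29.4 with sucrose. Its log2 change was -3.40 ± 0.38 (SE, n = 2 and 2), with a limma adjusted p of 0.0275. The call was lost without sorbitol 1 (limma adjusted p = 0.182), without sorbitol 2 (0.101) and with no filter on dim probe sets (0.0735), while the log2 change was -3.01, -3.79 and -3.40 in those settings. Over all 12 settings its limma adjusted p ran from 3.77e-05 to 0.182.

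The other 8 did not pass. ATG8E, which marks the membranes of autophagy, read 551.5 and 483.8 with sorbitol and 67.5 and 372.6 with sucrose, so its log2 change of -1.70 rested on sucrose 1 (limma adjusted p = 0.268). With the replicate number as a block, 2 of the 9 passed, AKINBETA1 and ATG8E, and the limma adjusted p of ATG8E was 0.0285, within a range of 0.0285 to 0.577 over the settings. In that fit 8.84% of all probe sets passed as lower and 8.28% as higher. MCCA, IVD and MCCB, of the breakdown of branched-chain amino acids, had smaller differences: -0.86 (limma adjusted p = 0.190), -0.52 (0.469) and -0.43 (0.481). ETFQO, which passes the electrons from that pathway to respiration, gave -0.49 (limma adjusted p = 0.457). For bZIP53, a transcription factor of the starvation response, the log2 change was -0.12 (limma adjusted p = 0.885). The aldehyde dehydrogenases ALDH6B2 and ALDH7B4 went the other way, with 0.27 (limma adjusted p = 0.674) and 0.61 (limma adjusted p = 0.531). Between the sorbitol arrays, MCCA, IVD, ALDH6B2 and ALDH7B4 were higher on sorbitol 2. AKINBETA1, ATG8E, MCCB, ETFQO and bZIP53 were higher on sorbitol 1, ETFQO only slightly.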

How the data were processed

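RNA levels were read as intensities of 22810 probe sets on each of 4 arrays. The authors deposited MAS5 intensities, per the submitters' processing notes (version and settings: not given in the sources used here). The 2% trimmed mean was 100 on every array, so values were treated as linear and already scaled. The number of arrays and background at low signal limit the precision. Detection calls were not used here.

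Values under 0.1 were set to 0.1 before log2 was taken. The 64 control probe sets were left out of tests. Gene names came from the platform annotation (1 gene for 13513 probe sets, several for 503, none listed for 8730), with current symbols from the TAIR10.1 name table for 13436 matched by gene number. The sugars were compared in R 4.3.3 by limma 3.58.1 (lmFit, eBayes with a trend) over 13648 probe sets at or above the 40th percentile of mean log2 value, with Benjamini-Hochberg adjustment and a threshold of 0.05. The fit was also run on simulated arrays drawn independently, which does not cover arrays that share a number and deviate together. Tables and figures were made with Python 3.11.15, pandas 2.3.3, numpy 2.4.6 and matplotlib 3.10.9.

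The lowered genes and the gene lists were chosen with earlier results of these data known. Named genes are the 12 with the largest mean difference, the 6 brightest in sorbitol, the 4 most different between pairs, 3 on each side of the limit, up to 4 per role by mean difference, lowered neighbours and all measured energy-shortage genes. The reference holds no descriptions, so roles came from general knowledge and were assigned after the values were seen. AT1G32470, AT2G38820, AT5G47330, AT3G28270, AT5G12050, the other second-probe-set genes and the pseudogenes were named after their values were seen. Same-numbered arrays deviated together from their group means (correlation 0.43 over 13648 probe sets), but the labels state no shared batch and 2 pairs do not settle it, so the replicate number is a block only in an alternative. Other alternatives changed the sorbitol minimum, the limit, the scaling, the pseudocount, the filter, the trend, the symbols, the families left out and the arrays. Raising values under 9.3 to that level and leaving AT1G32470 out of the plastid group were chosen after seeing the data.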

Additional observations from a re-analysis of the deposited data

How the results depend on the processing

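The number of lowered genes, 268, stayed within 1.5 times under a sorbitol minimum of 32 (323) or of double the usual value (185), quantile normalization (287, of which 265 shared), median centring (293, 260 shared), a pseudocount of 16 (215), older symbols (268) and the left-out families kept (276). It was 129 with a limit of 1.5 log2 units, and 416 to 592 with a single pair. The median difference of the 269 probe sets, -1.79, stayed within the spread between pairs under quantile normalization, median centring, the pseudocount and the floor of 9.3. It was -1.62 with pair 1 alone and -1.97 with pair 2 alone. The spread was taken from these same pairs, so it cannot judge them. For the other settings the median was not computed. All 269 probe sets stayed lower in both pairs under quantile normalization and median centring, which the limit of -1 largely fixed in advance. Of the mean differences of the 12 most lowered genes under 4 other settings, 38 moved by less than the spread between pairs, 10 by more and 0 changed sign. Over the whole array, limma called 126 probe sets lower and 50 higher; with no filter it called 2 and 1, with quantile normalization 71 and 21, without the trend 77 and 26, with median centring 196 lower and with a 60th percentile filter 83 higher. With the replicate block the counts were 1206 lower and 1130 higher. Without 1 array they ran from 0 to 548 lower and from 0 to 407 higher, with the lone array of a group assumed to vary like the other group: 0 lower without sorbitol 1 or sorbitol 2, 86 without sucrose 2 and 548 without sucrose 1. Energy-shortage genes called lower numbered 1, against 0 with no filter, 2 with the replicate block and 0 to 2 without 1 array. The cause of these shifts was not tested. Shares of promoter motifs and protein identity between the genes were not run, because no promoter or protein sequences were used here. Detection calls were not used, so values near 9.3 or below give bounds only.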
